A study of Mus musculus with 7 samples.

Results

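Chemokine genes that are known to be made by intestinal epithelial cells (IECs) were followed in purified Paneth cells (PCs), 10 in all: Cxcl1, Cxcl2, Cxcl5, Cxcl9, Cxcl10, Cxcl16, Ccl20, Ccl25, Ccl28 and Cx3cl1. They were taken from a list of symbols, and each of the 10 symbols matched 1 of the 55414 gene identifiers of the count table. PCs, the granulated secretory cells of the small intestinal crypts, had been sorted from C57BL/6J mice 15 h after an injection of PBS (the control, 3 libraries) or of tumor necrosis factor (TNF, 4 libraries), with a separate mouse for each library. The strain, the time and the cell sort were the same in both groups. Dose, age, sex and gut segment were not stated. The libraries held 15511455 to 19193721 counts, so that 1 count equaled 0.0509 to 0.0654 CPM (counts per 1e6 of the library size, scaled with TMM, a trimmed mean of log ratios).

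Chemokines are small secreted proteins that bind G protein-coupled receptors on leukocytes and direct their migration. In the gut, some are made at rest and bring lymphocytes to the mucosa, while others are switched on by inflammatory cytokines through the transcription factor NF-kB or through interferon-activated STAT and IRF factors. TNF is a classic activator of NF-kB. Most of the 10 are secreted, whereas Cxcl16 and Cx3cl1 are made as membrane proteins that are released by proteases.

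After TNF, 8 of the 10 genes were higher, 1 (Ccl25) was lower and 1 (Ccl28) was not called, by the quasi-likelihood test of edgeR at a Benjamini-Hochberg adjusted p under 0.05 over all 14329 genes tested. Over those genes, 59.6% were called, 29.5% as higher and 30.1% as lower. The median log2 fold change of the list was 5.39, both with fitted values and with low-count genes at their bound or ratio, beside 0.00167 over all genes tested. However, Cxcl1, Cxcl2, Cxcl5, Cxcl9 and Cxcl10 passed the filter on low counts only through the TNF libraries and therefore had to differ. This fixes part of both the count called higher and the median. The other genes had log2 fold changes of 5.21 (Ccl20), 5.01 (Cxcl16), 0.561 (Cx3cl1), -0.109 (Ccl28) and -1.39 (Ccl25). The TNF libraries did not overlap the PBS libraries for 9 of the 10 genes (all but Ccl28), which was the case for 60.7% of all genes tested. In bulk RNA, more or fewer cells of a type and more or less RNA per cell cannot be told apart, and this holds for each change below.

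**Figure D1:**
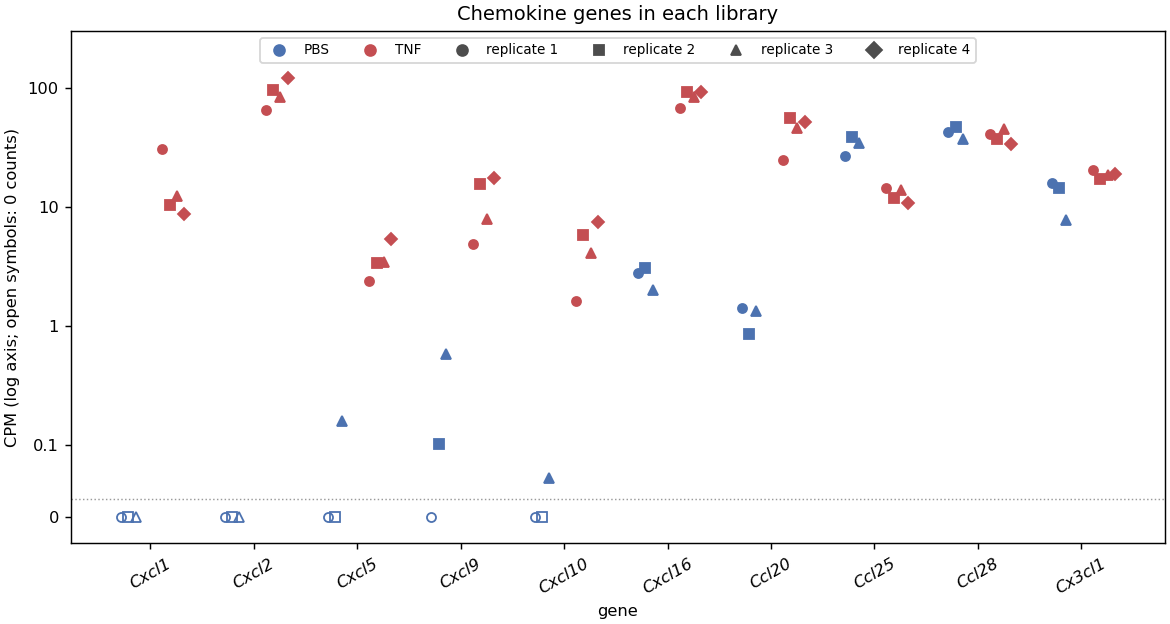
CPM of each chemokine gene (log axis) in the 3 PBS libraries (blue) and the 4 TNF libraries (red), with 1 point per library, replicate numbers by symbol and open symbols for libraries with 0 counts. Cxcl1 and Cxcl2 had 0 counts in each PBS library, Ccl25 is the gene whose red points lie below the blue ones, and the groups of Ccl28 overlap.

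The 3 members that bind Cxcr2, the main chemokine receptor of neutrophils, went from no or almost no counts to clear expression. Cxcl2 (ENSMUSG00000058427, GRCm39 chr5:91051730-91053797, plus strand) had 0 counts in PBS 1, 2 and 3 and stood at 65.0, 96.7, 84.2 and 122.1 CPM in TNF 1, 2, 3 and 4. Its mean after TNF was 92.0 ± 23.9 CPM (SD, n = 4). Cxcl1 (ENSMUSG00000029380, chr5:91039094-91040974, plus strand) also had 0 counts in each PBS library, and its TNF libraries held 31.0, 10.5, 12.4 and 8.70 CPM. Its TNF 1 library stood apart from the other three, the opposite of Cxcl2, which was lowest there.

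Against a floor of 3 counts over the whole PBS group, the rise was at least 1653-fold for Cxcl2 (adjusted p = 4.2e-08 in edgeR) and at least 290.4-fold for Cxcl1 (adjusted p = 0.000222 in edgeR). The bounds also depend on the summed depth of the PBS libraries. They shrank to 1061-fold for Cxcl2 and 186-fold for Cxcl1 without PBS 2, and to 1079-fold and 189.5-fold without PBS 3. The bound of Cxcl1 was 193.8-fold without TNF 1.

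Of the leukocyte markers, 3 genes typical of neutrophils, chosen here after their values were seen, were also at 0 in the PBS libraries. In TNF 1 to 4, S100a9 had 103, 116, 60 and 120 counts, Ly6g 102, 48, 66 and 17, and S100a8 10, 13, 4 and 5, against 1161, 1640, 1573 and 1866 counts for Cxcl2 and 554, 178, 231 and 133 for Cxcl1. The 15 leukocyte markers together summed to 12.6 to 27.0 CPM after PBS and 18.7 to 21.9 CPM after TNF, so that the groups overlapped. That overlap rests on the CD45 gene Ptprc, which held 11.4, 26.2 and 11.6 CPM in PBS 1 to 3, out of sums of 13.5, 27.0 and 12.6 CPM. In TNF 1 to 4 it held 7.28, 6.25, 12.7 and 7.72 CPM, out of 21.4, 19.1, 21.9 and 18.7 CPM. Within that list S100a9 and Ly6g were called higher, which was fixed by the filter, as they passed it only through the TNF libraries. Ptprc (CD45) was called lower (log2 fold change -0.947, edgeR adjusted p = 0.027), and Itgam, which myeloid cells express, had 7 to 22 counts per PBS library and 11 to 21 per TNF library and was not called (0.14, edgeR adjusted p = 0.851). The part of leukocytes in the rise of these chemokines was not tested.

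Cxcl5 (ENSMUSG00000029371, chr5:90907186-90909483, plus strand) is the third ligand of Cxcr2 on the list. It had 0, 0 and 3 counts after PBS, and 2.41, 3.36, 3.48 and 5.43 CPM after TNF. The ratio was 65.7, with a 95% exact binomial interval of 22.2 to 320.8 that covers counting error only (edgeR adjusted p = 1.6e-05). The 3 counts all came from PBS 3, without which Cxcl5 was at least 42.9-fold higher, and the ratio was 42.2 without PBS 2. An antisense long non-coding gene shares 523 exon bases with Cxcl5.

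The sequences just before the start sites of Cxcl1 and Cxcl2 are shown because both genes went from 0 counts to high levels and hold matches to a kB-like pattern, named after the elements that NF-kB factors are known to bind. They are the 160 bases before the start site in RefSeq (GRCm38.p6), for Cxcl1 at chr5:90891085-90891244, plus strand and for Cxcl2 at chr5:90903739-90903898, plus strand. Capitals mark matches to this pattern on either strand (3 G, any 3 bases, 2 T and 2 C, read 5′ to 3′).
Cxcl1: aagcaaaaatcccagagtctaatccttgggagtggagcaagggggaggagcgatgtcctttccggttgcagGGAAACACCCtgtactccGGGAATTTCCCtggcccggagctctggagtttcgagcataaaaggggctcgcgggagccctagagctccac
Cxcl2: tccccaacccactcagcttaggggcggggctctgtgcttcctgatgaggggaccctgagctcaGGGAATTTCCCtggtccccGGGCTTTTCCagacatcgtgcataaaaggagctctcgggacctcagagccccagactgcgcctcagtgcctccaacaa
In both windows the run GGGAATTTCCC is matched on both strands, so that its 2 matches overlap. A further match lies before it in Cxcl1 (GGAAACACCC, on the minus strand of the gene) and after it in Cxcl2 (GGGCTTTTCC). The matches span -89 to -61 in Cxcl1 and -97 to -69 in Cxcl2, counted back from -1 at the base before the start site.

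Cxcl9 and Cxcl10, ligands of Cxcr3 that attract activated T cells and natural killer cells and are best known as interferon-induced genes, rose from few counts. Cxcl9 (ENSMUSG00000029417, chr5:92469206-92475945, minus strand) had 0, 2 and 11 counts in PBS 1, 2 and 3, and reached 4.87, 15.7, 7.93 and 17.6 CPM in TNF 1 to 4. Its mean was 0.228 ± 0.312 (SD, n = 3) CPM after PBS and 11.5 ± 6.10 (SD, n = 4) CPM after TNF, a log2 fold change of 5.56 ± 0.78 (SE, adjusted p = 0.000174 in edgeR). PBS 3 carried most of its PBS counts, and without that library the ratio was 199.7 (95% counting interval 55.1 to 1652).

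Cxcl10 (ENSMUSG00000034855, chr5:92494497-92496748, minus strand) had 0, 0 and 1 counts after PBS and 1.62, 5.78, 4.12 and 7.46 CPM after TNF. The ratio of 252.8 had a wide interval, 45.04 to 10015, since it rests on 1 count (edgeR adjusted p = 5.53e-06). Without PBS 3, which held that count, Cxcl10 was at least 54.98-fold higher, and without PBS 2 the ratio was 162.3. For both genes TNF 1 was the lowest TNF library and TNF 4 the highest, and each TNF library stood above each PBS library.

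The windows of both genes are shown for contrast, since they lie near each other and both rose, but only that of Cxcl10 held kB-like matches. They are 160 bases before the RefSeq start sites (GRCm38.p6), for Cxcl10 at chr5:92348890-92349049, minus strand and for Cxcl9 at chr5:92328080-92328239, minus strand, written in the direction of the gene with kB-like matches in capitals.
Cxcl10: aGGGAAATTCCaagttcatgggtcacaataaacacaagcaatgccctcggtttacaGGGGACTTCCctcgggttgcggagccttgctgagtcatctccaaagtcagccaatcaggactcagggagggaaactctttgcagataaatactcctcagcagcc
Cxcl9: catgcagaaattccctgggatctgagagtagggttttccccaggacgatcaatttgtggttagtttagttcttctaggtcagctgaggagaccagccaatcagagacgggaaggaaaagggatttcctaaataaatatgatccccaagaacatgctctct
The matches of Cxcl10 were GGGAAATTCC at -159 to -150 and GGGGACTTCC at -104 to -95. Upstream of the printed stretch, at -213 to -204, Cxcl10 also held GAAAGTGAAA, a match to an interferon-response-like pattern (2 copies of GAAA with any 2 bases between them). Cxcl9 held neither pattern in its window of 300 bases, and near matches to the patterns were not searched for.

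Cxcl16 and Cx3cl1, the chemokines made as membrane proteins, were both called higher, by very different amounts. Cxcl16 (ENSMUSG00000018920, chr11:70344517-70352620, minus strand), the ligand of Cxcr6 on T cells and natural killer T cells, stood at 2.78, 3.05 and 2.02 CPM in PBS 1 to 3 and at 68.2, 92.5, 84.2 and 93.3 CPM in TNF 1 to 4. The groups were far apart and each was tight. Its mean rose 32.3-fold, from 2.62 ± 0.539 (SD, n = 3) CPM in the controls to 84.6 ± 11.7 (SD, n = 4) CPM, which is 5.01 ± 0.18 on the log2 scale (SE, adjusted p = 1.62e-10 in edgeR).

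Cxcl16 shares 2132 exon bases with Zmynd15 and 2213 with Med11, both on the opposite strand, and whether the counting used strand was not stated. Zmynd15 went from 0 counts in each PBS library to 118, 107, 80 and 42 counts in TNF 1 to 4, against 1218, 1569, 1573 and 1426 counts for Cxcl16. Med11 rose from 129, 172 and 116 counts to 310, 369, 397 and 346 (log2 fold change 1.44, edgeR adjusted p = 7.42e-06). Reads of these genes and of Cxcl16 cannot be told apart without strand.

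Cx3cl1 (ENSMUSG00000031778, chr8:95498637-95509055, plus strand), or fractalkine, the ligand of Cx3cr1 on mononuclear phagocytes, held 16.1, 14.5 and 7.74 CPM after PBS and 20.6, 17.3, 18.5 and 18.9 CPM after TNF. The TNF libraries all stood above the PBS libraries, and PBS 3 was the lowest. The rise was small, with a log2 fold change of 0.56 ± 0.21 (SE, 95% interval 0.106 to 1.02; edgeR adjusted p = 0.0344). The call did not hold without PBS 3 (log2 fold change 0.295, adjusted p = 0.129) or without TNF 1, 3 or 4 (adjusted p of 0.0568, 0.0571 and 0.0552). It was also lost with scaling by total counts (0.439, adjusted p = 0.104), under which the median of all genes was -0.163.

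Ccl20, Ccl25 and Ccl28, which bring lymphocytes and dendritic cells to the mucosa, went in different directions. Ccl20 (ENSMUSG00000026166, chr1:83094487-83096888, plus strand) is the ligand of Ccr6 and is typical of the epithelium over lymphoid follicles. It was present at 1.42, 0.865 and 1.33 CPM in PBS 1 to 3 and at 24.6, 55.9, 45.7 and 51.5 CPM in TNF 1 to 4. The mean rose 36.9-fold, from 1.204 ± 0.297 (SD, n = 3) CPM in the controls to 44.5 ± 13.9 (SD, n = 4) CPM, which is 5.21 ± 0.34 on the log2 scale (SE, adjusted p = 1.64e-07 in edgeR). TNF 1 was again the lowest TNF library, and still far above the PBS libraries.

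Ccl25 (ENSMUSG00000023235, chr8:4374661-4540760, plus strand), known for guiding Ccr9-bearing T cells and IgA plasma cells to the small intestine, was the member that fell. Its level was 26.8, 38.5 and 34.8 CPM in PBS 1 to 3 and 14.4, 11.9, 13.9 and 10.7 CPM in TNF 1 to 4, with no overlap. The mean was 33.4 ± 6.01 (SD, n = 3) CPM in the controls and 12.7 ± 1.71 (SD, n = 4) CPM after TNF, and the log2 fold change was -1.39 ± 0.16 (SE, adjusted p = 4.07e-06 in edgeR). Ccl25 was called lower under each of the 14 alternatives, with log2 fold changes of -1.56 to -1.27. It shares 604 exon bases with Elavl1 on the opposite strand, which was not called (log2 fold change -0.117, edgeR adjusted p = 0.309).

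Ccl28 (ENSMUSG00000074715, chr13:120085355-120115895, plus strand) attracts Ccr10-bearing IgA plasma cells to mucosal surfaces. It held 42.5, 47.2 and 37.3 CPM after PBS and 40.7, 37.1, 45.3 and 33.8 CPM after TNF. The groups overlapped, and the log2 fold change of -0.11 ± 0.13 (SE) had a 95% interval of -0.383 to 0.166 (edgeR adjusted p = 0.483). It was not called under any of the 14 alternatives, where the adjusted p ran from 0.217 to 0.92.

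The windows of Ccl20, which rose, and Ccl28, which was not called, are shown side by side. They are 160 bases before the RefSeq start sites (GRCm38.p6), for Ccl20 at chr1:83116606-83116765, plus strand and for Ccl28 at chr13:119623659-119623818, plus strand, with the kB-like match in capitals.
Ccl20: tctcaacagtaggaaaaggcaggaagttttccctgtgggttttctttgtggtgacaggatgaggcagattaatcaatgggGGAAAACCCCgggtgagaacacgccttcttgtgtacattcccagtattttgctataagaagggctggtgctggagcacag
Ccl28: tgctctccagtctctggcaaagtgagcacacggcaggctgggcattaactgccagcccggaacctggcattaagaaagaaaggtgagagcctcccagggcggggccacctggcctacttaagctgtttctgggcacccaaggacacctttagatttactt
Ccl20 held 1 match, GGAAAACCCC, on the minus strand of the gene at -80 to -71. Ccl28 held none of the patterns searched.

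**Figure D2:**
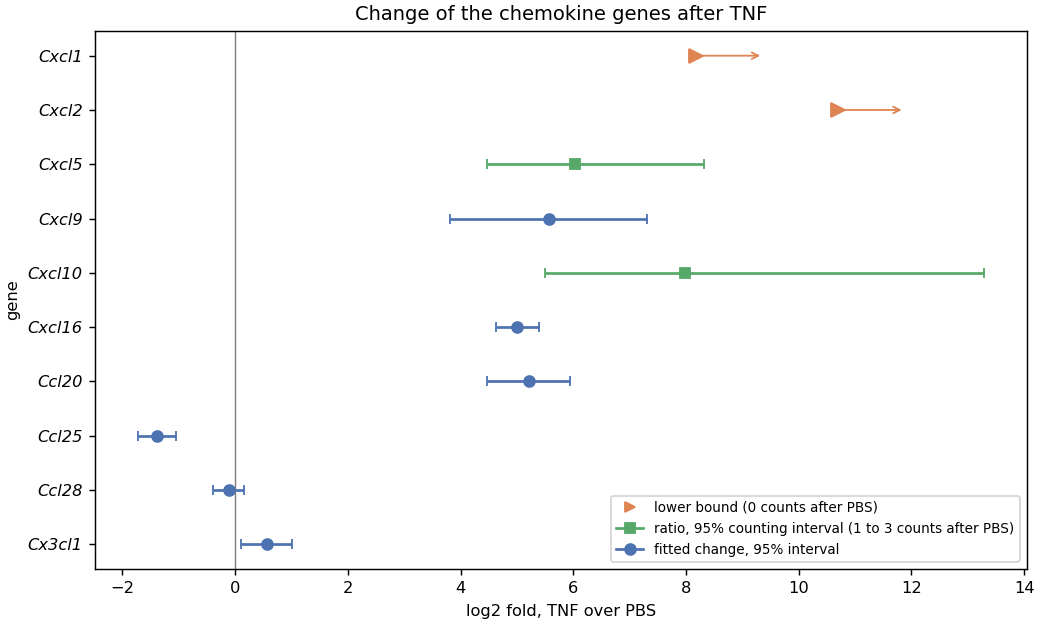
Log2 fold of TNF over PBS for each chemokine gene, as a lower bound for genes with 0 counts after PBS (arrows), as a ratio with its 95% counting interval for genes with 1 to 3 counts after PBS (squares) and as the fitted change with its 95% interval for the others (circles). Ccl25 lies below 0, the interval of Ccl28 spans 0, that of Cx3cl1 begins just above it, and the other 7 genes lie at 5.01 or more.

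Promoter windows of 300 bases (250 before to 50 after the start site) were found in RefSeq for 8 of the 10 genes, with 2 entries for Ccl25 and none for Cxcl5 and Cxcl16. The kB-like pattern was present in 4 of these 8 genes (Cxcl1, Cxcl2, Cxcl10 and Ccl20) and in 5.56% of all 32851 windows. All 4 were called higher, as were Cxcl9 and Cx3cl1, which held no match. Of these, Cxcl1, Cxcl2, Cxcl9 and Cxcl10 passed the filter only through the TNF libraries and so had to differ. Among all genes tested, 29.5% were called higher. Ccl25 and Ccl28 also held no kB-like match. The interferon-response-like pattern was found in Cxcl10 and in 3.44% of all windows, and a STAT-like pattern (TTCNNNGAA), found in 8.3% of all windows, in none of the 8. TATAAA was found in Cxcl9, Cx3cl1 and the second entry of Ccl25, and in 13.6% of all windows. These are matches of letters in a fixed window and were read on both strands.

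**Figure D3:**
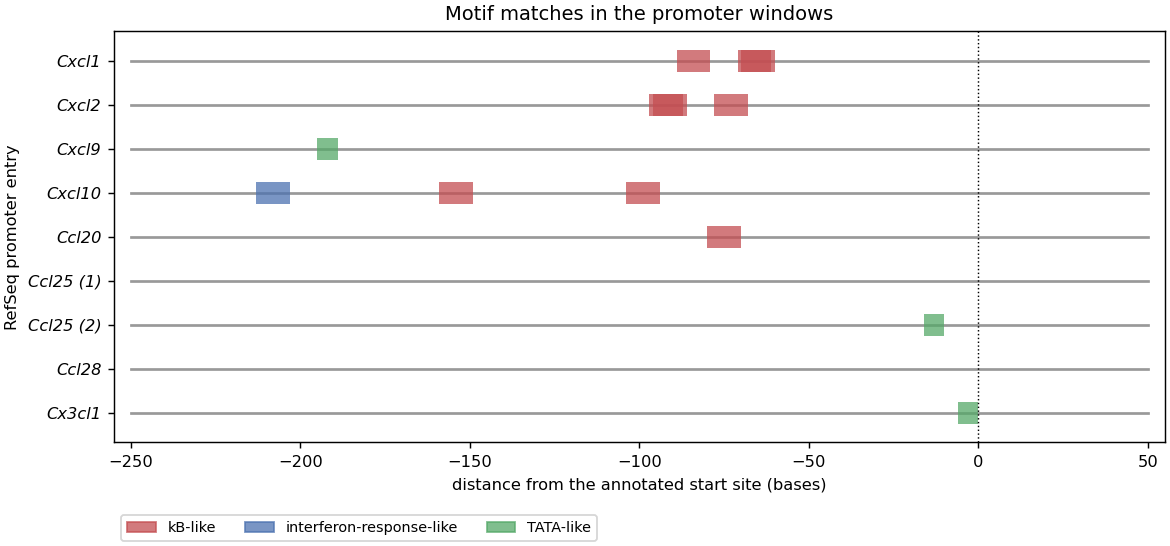
Position of motif matches, in bases from the annotated start site (dotted line), in the RefSeq windows of the 8 chemokine genes with an entry (9 windows, since Ccl25 has 2). The kB-like matches (red) of Cxcl1, Cxcl2 and Ccl20 lie between -97 and -61, Cxcl10 has a pair at -159 and -104 and an interferon-response-like match (blue) at -213, and TATAAA (green) is in Cxcl9, Ccl25 and Cx3cl1.

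To compare levels between genes, CPM was divided by gene length, first by the union of all annotated exons. After PBS, Ccl28 was highest at 8.53 CPM per kb (7.51 to 9.52 over the libraries). Cx3cl1 (3.22, range 1.95 to 4.05) and Ccl25 (2.66, range 2.14 to 3.07) followed and overlapped each other, then Ccl20 at 0.847 (0.609 to 1.00) and Cxcl16 at 0.511 CPM per kb (0.393 to 0.596), which did not overlap. The other 5 genes were at 0.0755 CPM per kb or less.

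After TNF the order was different. Cxcl2 had the highest mean level, 44.5 CPM per kb (31.4 to 59.1), ahead of Ccl20 (31.3, range 17.3 to 39.4) and Cxcl16 (16.5, range 13.3 to 18.2), with overlap of the ranges between each neighboring pair. Within each of the 4 TNF libraries, however, Cxcl2 was above Ccl20 and Ccl20 above Cxcl16. Cxcl1 (8.32), Ccl28 (7.90), Cx3cl1 (4.74), Cxcl9 (3.81), Cxcl10 (2.11), Cxcl5 (1.94) and Ccl25 (1.01) came next in CPM per kb. Of these, only Ccl28 and Cx3cl1, and Cxcl5 and Ccl25, were neighbors whose ranges did not overlap. Cxcl1 was above Ccl28 in TNF 1 alone.

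The place of Ccl25 rests on the length used. Its annotated exons add up to 12.5 kb, whereas its canonical transcript has 0.902 kb, and per kb of canonical transcript Ccl25 was the highest of the 10 after PBS, at 37.0 (29.7 to 42.7), above Ccl28 at 11.3 (9.97 to 12.6). After TNF it stood at 14.1 CPM per kb of canonical transcript, below the means of Cxcl2 (82.8), Ccl20 (55.4), Cxcl16 (28.3) and Cxcl1 (16.3). Its place below Cxcl1 came from TNF 1 alone, and Ccl25 was above Cxcl1 in TNF 2, 3 and 4. With either length, Cxcl2, Ccl20 and Cxcl16 had the highest means after TNF, and they were the top genes in TNF 2, 3 and 4. In TNF 1, Cxcl1 stood above Cxcl16 with either length, and above Ccl20 as well per kb of canonical transcript.

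The summed level of the 10 genes was 16.3, 17.5 and 13.9 CPM per kb of exons in PBS 1 to 3, and 96.7, 132.0, 117.1 and 142.5 in TNF 1 to 4. Of this sum, Ccl28 made up 53.7% ± 1.03 (SD, n = 3) in the controls and 6.68% ± 1.75 (SD, n = 4) in the TNF group, although its own CPM was not called. After TNF, Cxcl2 made up 36.0% ± 3.81, Ccl20 25.2% ± 5.15 and Cxcl16 13.6% ± 0.546 (SD, n = 4). Per kb of canonical transcript, Ccl25 went from 67.4% ± 5.66 of the sum to 6.50% ± 1.83, while the share of Cxcl2 after TNF was 36.6% ± 4.46. These shares are a description and carry no test.

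**Figure D4:**
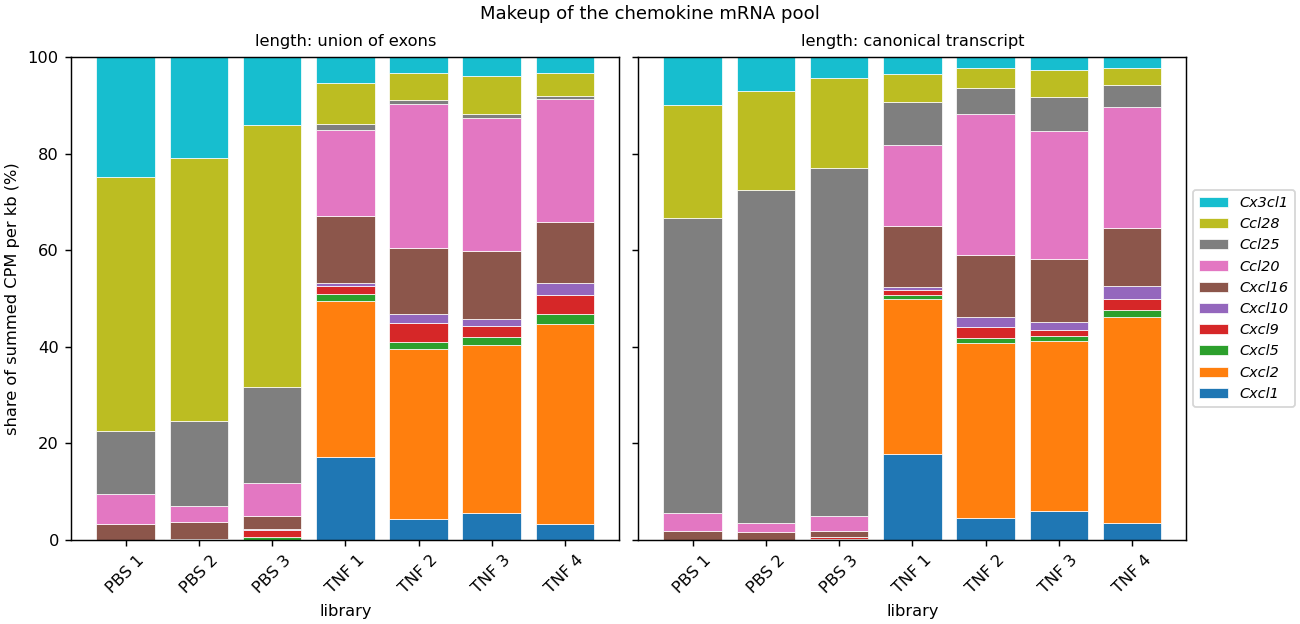
Share of each chemokine gene in the summed CPM per kb of the 10 genes (%), in each PBS and TNF library, with the union of exons (left) or the canonical transcript (right) as the length. Ccl28 or Ccl25, according to the length, holds the largest part of each PBS bar, and Cxcl2, Ccl20 and Cxcl16 together hold most of each TNF bar.

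The 4 TNF libraries differed among themselves, and more for some genes than for others. The coefficient of variation among the TNF libraries was 66.2% for Cxcl1, 52.9% for Cxcl9 and 52.4% for Cxcl10, and ran from 26.0% to 34.6% for Cxcl2, Ccl20 and Cxcl5. It was 13.8% or less for Cxcl16, Ccl25, Ccl28 and Cx3cl1. TNF 1 was the lowest TNF library for Cxcl2, Cxcl5, Cxcl9, Cxcl10, Cxcl16 and Ccl20, at 0.342 (Cxcl10) to 0.806 (Cxcl16) of the group mean, and the highest for Cxcl1, at 1.98 times the mean.

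Cxcl2, Cxcl9, Cxcl10 and Cxcl16 shared the order TNF 4, 2, 3, 1 from high to low, which was also the order of the summed PC markers (1.32, 1.04, 0.916 and 0.723 of their mean). Cxcl1 and Ccl25 had the reverse order, TNF 1, 3, 2, 4, as did the summed tuft cell markers (1.41, 1.23, 0.825 and 0.535 of their mean). Of the neutrophil genes, Ly6g had this order too (5.71, 3.53, 2.83 and 1.11 CPM), whereas S100a9 ran TNF 4, 2, 1, 3 and S100a8 ran TNF 2, 1, 4, 3. The summed leukocyte markers had the order of Ccl28 (TNF 3, 1, 2, 4). The place of Cxcl16 rests on 93.3 against 92.5 CPM in TNF 4 and TNF 2. The TMM factors, by which CPM is divided, were 0.842, 0.926, 0.974 and 1.09 in TNF 4, 2, 3 and 1. With 4 libraries these orders are a description. The parts of this scaling and of the makeup of the sorted cells in these orders were not tested.

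**Figure D5:**
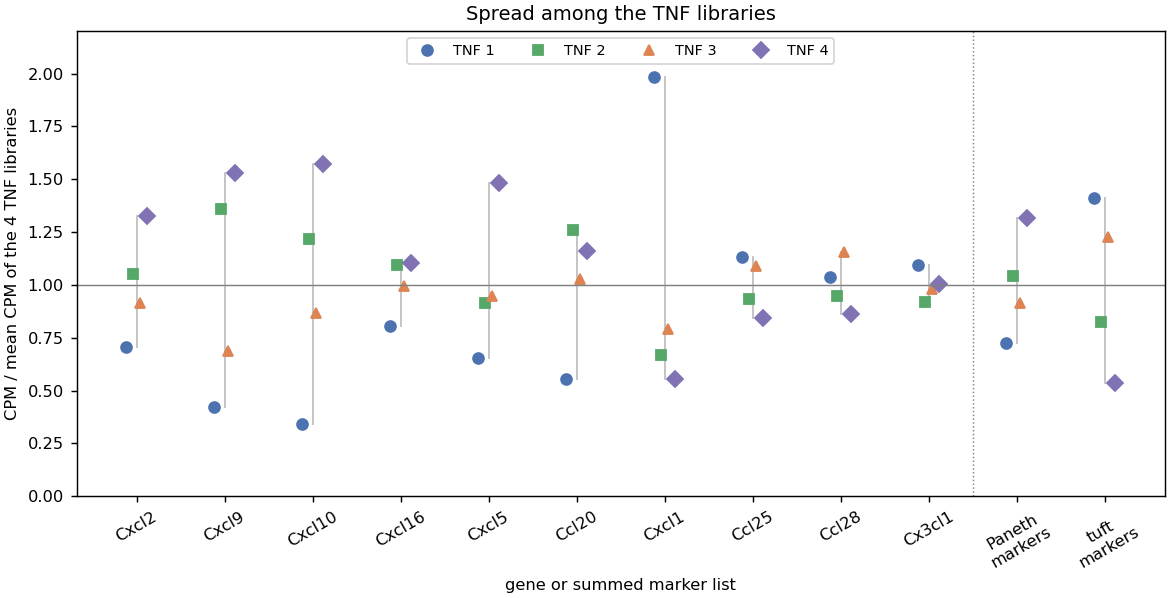
CPM of each chemokine gene, and of the summed PC and tuft cell markers, in each TNF library, divided by the mean of the 4 TNF libraries (horizontal line at 1). TNF 1 (blue circles) is lowest for 6 of the genes and for the PC markers, and highest for Cxcl1, Ccl25, Cx3cl1 and the tuft markers.

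Markers of cell types were read beside these results. The 10 PC markers summed to 187028 to 308254 CPM in the PBS libraries and 175277 to 319305 CPM in the TNF libraries, led by the lysozyme gene Lyz1, with 1 called higher and 4 lower, beside 29.5% and 30.1% of all genes tested. Mmp7 was the 1 called higher, and Clps, Habp2, Cd24a and Kit were the 4 called lower. Means of these 4 went from 1205, 657, 3096 and 462 CPM after PBS to 250, 274, 2244 and 144 CPM after TNF. The leukocyte markers, whose sums are given above, were led by Ptprc, and Cd3e, Ms4a1, Nkg7 and Tyrobp among them had 0 counts in every library. The summed level of the 11 stromal and endothelial markers was 3.00 to 3.65 CPM after PBS and 8.44 to 10.5 CPM after TNF, with Kdr and Col1a2 at 0 counts in every library. Of the 2 that passed the filter, Vwf was called higher and Lyve1 was not called, beside 59.6% called among all genes tested. Without Vwf the other 10 summed to 0.814 to 1.38 CPM after PBS and 0.236 to 0.951 CPM after TNF.

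Markers of the other epithelial cells were lower after TNF for most genes. All 6 tuft cell markers and all 5 stem cell markers were called lower, as were 7 of 9 tested enterocyte markers (1 higher), 4 of 7 goblet cell markers and 2 of 5 enteroendocrine markers, beside 30.1% lower among all genes tested. Of these, Il25, Apoa1 and Apoa4 passed the filter only through the PBS libraries and so had to differ, and Sis, Zg16 and Ascl2 had too few TNF libraries above its limit to pass without the PBS libraries. The summed tuft markers, led by Dclk1, went from 1276 to 2088 CPM after PBS to 220.5 to 581.6 CPM after TNF, and the enterocyte markers, led by Anpep after PBS and Slc5a1 after TNF, from 688.7 to 832.8 CPM to 135.9 to 173.5 CPM. Goblet markers, led by Muc2, went from 11176 to 20555 CPM to 9167 to 10486 CPM, and stem cell markers, led by Olfm4, from 2546 to 3693 CPM to 998.5 to 1627 CPM. Enteroendocrine markers, led by Chgb after PBS and Sct after TNF, overlapped at 25.1 to 91.3 CPM and 17.6 to 31.8 CPM. Where called, all but 1 of these markers (Slc5a1) moved in the same direction as Ccl25. Their part in the chemokine results was not tested.

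Of 28 other chemokine ligand genes, 5 passed the filter on low counts, 11 had 0 counts in every library, 2 were called higher and 1 lower (median log2 fold change -0.345). That is 3 of 5 tested, beside 59.6% of all genes tested. Cxcl11, the third ligand of Cxcr3, whose product is known to be non-functional in C57BL/6 mice, stood at 0.556, 0.204 and 0.106 CPM in PBS 1 to 3 and 7.95, 10.1, 5.94 and 11.0 CPM in TNF 1 to 4. Its log2 fold change was 4.94 ± 0.45 (SE, adjusted p = 6.13e-07 in edgeR), or 5.75 without PBS 1, but it passed the filter only through the TNF libraries and so had to differ. All 3 Cxcr3 ligands stood above every PBS library in each TNF library. Cxcl3 and Ppbp, further ligands of Cxcr2, were not tested, with 0, 3, 4 and 1 counts in TNF 1 to 4 and none after PBS for Cxcl3, and 0 counts in every library for Ppbp.

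Ccl6 and Ccl9, related CC chemokines, changed in opposite directions. Ccl6 went from 3185, 2600.2 and 1825 CPM to 308, 354, 286 and 458 CPM (log2 fold change -2.85 ± 0.21, SE, adjusted p = 1.03e-07 in edgeR). Ccl9 went from 459.5, 228 and 192 CPM to 503, 586, 570.4 and 664 CPM (0.99 ± 0.27; edgeR adjusted p = 0.0108). Ccl27a (log2 fold change -0.35, adjusted p = 0.507) and Cxcl13 (-0.345, adjusted p = 0.613) were not called.

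The signaling receptors of the 10 chemokines had few or no counts. Cxcr3, Ccr3, Ccr6, Cx3cr1 and the atypical receptor Ackr2 had 0 counts in every library and were not detectable at this depth. Cxcr2 had 5 counts over the TNF libraries (3, 0, 1 and 1) and none after PBS, Cxcr6 had 6 counts, all in PBS 2, Ccr9 had 1 count after PBS and 7 after TNF, and Ccr10 had 2 and 6. Of the 13 receptor genes, 2 passed the filter and both were lower, beside 30.1% of all genes tested. Ackr1, an atypical receptor that binds many inflammatory chemokines without signaling, fell from 3.65, 3.56 and 3.34 CPM to 1 count in all TNF libraries together, a ratio of 241.5-fold lower (95% counting interval 42.8 to 9589; edgeR adjusted p = 1.18e-06), or at least 59.2-fold lower without TNF 3. It passed the filter only through the PBS libraries and so had to differ. Ackr4, which takes up Ccl25 among others, fell from 19.4, 27.7 and 16.0 CPM to 8.90, 4.07, 6.21 and 2.49 CPM (log2 fold change -1.95 ± 0.35, SE, adjusted p = 0.000703 in edgeR).

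Among 18 genes of the signaling and mRNA control of chemokines, all tested, 15 were called higher and none lower, and Traf3ip2 and Elavl1 were among those not called (median log2 fold change 1.16). Over all genes tested 29.5% were higher. The count was 13 with scaling by total counts and 14 or 15 under each other alternative. Relb, an NF-kB subunit, went from 17.1, 21.6 and 21.5 CPM to 155.4, 169.4, 141.2 and 144.3 CPM (log2 fold change 2.92 ± 0.13, SE, adjusted p = 5.71e-10 in edgeR). Zc3h12a, an RNase that degrades cytokine mRNAs, rose by 2.65 ± 0.18 on the log2 scale (edgeR adjusted p = 6.81e-08), from 24.7 to 33.8 CPM over the PBS libraries to 147.1 to 231.5 CPM over the TNF libraries.

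The interferon-gamma receptor genes rose as well. Ifngr2 rose by 2.50 ± 0.13 on the log2 scale (edgeR adjusted p = 2.85e-09) and Ifngr1 by 2.08 ± 0.11 (edgeR adjusted p = 2.61e-09). For Ifngr1 the PBS libraries held 45.2 to 49.9 CPM and the TNF libraries 179.9 to 208.4 CPM.

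The 9 genes for shedding and trimming of chemokines were all tested, with 4 called higher and 1 lower (median log2 fold change 0.229), so that 5 of 9 were called beside 59.6% of all genes tested. Adam10 and Adam17, the proteases that release Cxcl16 and Cx3cl1 from the membrane, were not called (-0.119, adjusted p = 0.388, and 0.06, adjusted p = 0.704). Rhbdf2, which is needed for the transport and activity of Adam17, went from 31.0, 25.1 and 30.7 CPM to 145.0, 148.1, 112.7 and 140.8 CPM (log2 fold change 2.24 ± 0.13, SE, adjusted p = 8.59e-09 in edgeR).

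The PC protease Mmp7 and the proteoglycan Sdc1, which Mmp7 is known to shed together with bound Cxcl1, were both higher. Sdc1 rose by 1.69 ± 0.12 (edgeR adjusted p = 3.65e-08) and Mmp7 by 0.88 ± 0.21 (edgeR adjusted p = 0.00223), and the cysteine protease Ctss rose by 1.81 ± 0.16 (edgeR adjusted p = 4.12e-07), all as log2 fold changes with SE. Dpp4, a peptidase that trims the ends of several chemokines, including Cxcl10, went from 28.6, 43.4 and 43.4 CPM to 14.9, 13.1, 18.3 and 9.69 CPM, and fell by 1.45 ± 0.20 on the log2 scale (edgeR adjusted p = 4.67e-05).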

How the data were processed

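Bulk RNA-seq of sorted PCs was analyzed, with 3 PBS and 4 TNF libraries. The authors deposited raw counts per gene. The submitters' processing notes name FastQC, Trimmomatic 0.39, STAR 2.7.10a and DESeq2, and both mm10 and mm39. No source used here gives the counting program, the annotation or the use of strand, so antisense overlaps are uncertain. Symbols and positions came from GENCODE M39 (GRCm39, 98.8% of identifiers matched) and promoters from RefSeq (GRCm38.p6).

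In R 4.3.3, edgeR 4.0.16 (filterByExpr, TMM, robust quasi-likelihood test, two-sided) compared TNF with PBS over the 7 libraries without covariates, after a test on simulated data. P-values were adjusted over all genes tested by the Benjamini-Hochberg method, with calls under 0.05. Genes with 0 counts in a group got a bound against 3 counts over that group, and genes with 1 to 3 counts a ratio with its 95% Clopper-Pearson interval. Both cover counting error only, since counts were pooled within a group, and leave out the spread between libraries. No molecular identifiers were used.

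The members and lists were chosen with earlier results of these data known. All members were named, and from each other list the called genes without overlap, up to 4 per direction by log2 fold change, the members' receptors, and, for markers, the most abundant gene and those at 0. Alternatives were other scalings (size factors of DESeq2, total counts, TMM without alpha-defensins and Lyz1), other filters (none, 1 CPM in 3 libraries), DESeq2 1.42.0, a replicate block, leaving out each library, and, added after the data were seen, canonical transcript length. Protein sequences were not analyzed here. The result of 1 listed gene is not reported here.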

Additional observations from a re-analysis of the deposited data

Results flagged for a closer look

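Of 43 genes examined, 2 had a TNF library that stood apart from the other three, with a gap to its nearest neighbor, as a share of the whole range, above Dixon's 95% critical value for 4 libraries. Chance gives about 1 such value in 20. The 43 genes were the chemokines and genes of the pathway lists that were not low in counts after TNF, and the marker lists were not examined. For Cxcl1 the ratio was 0.836, with TNF 1 at 31.0 CPM and the others at 8.70 to 12.4 CPM. For Ifngr1 it was 0.87, with TNF 2 at 179.9 CPM and the others at 204.7 to 208.4 CPM, all above the PBS libraries (45.2 to 49.9 CPM). Groups of 3 were not examined in this way.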

How the results depend on the processing

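Over 14 alternatives, 7 or 8 of the 10 chemokine genes were called higher and 1 lower. Among 24 genes (the 10 chemokines and 14 of the pathway lists) recomputed one by one, calls were lost for Cx3cl1, as given above, and for Mmp7 with a replicate block (log2 fold change 0.777, adjusted p = 0.0622), and no direction was reversed. Of the 18 regulators, 13 were called with scaling by total counts and 14 with the size factors of DESeq2, with the replicate block and without PBS 1, 2 or 3 or TNF 1, 2 or 4, against 15 otherwise. The shedding and trimming genes called were 4 with the replicate block, 6 without TNF 1 and 5 otherwise. The causes were not tested. With the replicate block, 8 chemokine genes were higher, 1 was lower, and 3553 and 3578 of all genes were called higher and lower. Replicate numbers did not pair the libraries: deviations of same-numbered libraries correlated at -0.299, -0.031 and -0.174, and libraries did not correlate best with their own number. Scaling by total counts called 3142 genes higher and 4614 lower, beside 4229 and 4314. Levels per kb depended on the length used, most of all for Ccl25. With no length scaling, Cxcl2 had the highest mean after TNF (92.0 CPM), followed by Cxcl16 (84.6 CPM) and Ccl20 (44.5 CPM). Cxcl16 was, however, above Cxcl2 in TNF 1 (68.2 against 65.0 CPM) and level with it in TNF 3 (84.2 CPM). At this depth a gene with 0 counts in 1 library allows up to 0.153 to 0.196 CPM.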
